A study of Mus musculus with 6 samples.

Results

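Long-chain fatty acids enter metabolism as acyl-CoA, and the enzymes on either side of that step are the subject here. Acyl-CoA synthetases of the ACSL family join a fatty acid to coenzyme A at the cost of ATP, and acyl-CoA thioesterases of the ACOT family split the thioester again into free fatty acid and coenzyme A. Brown adipocytes are heat-producing fat cells whose mitochondria carry uncoupling protein 1 (UCP1), and both enzyme families act on the fatty acids that their lipid droplets release. The 10 genes described are Acsl1, Acsl3, Acsl4, Acsl5 and Acsl6 on the synthetase side and Acot1, Acot2, Acot9, Acot11 and Acot13 on the thioesterase side. They were chosen by symbol among 22466 genes with a RefSeq transcript in the table, and each is represented by its RefSeq transcript with the highest mean. The rule compared no genotypes.

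RNA was sequenced from 6 cultures of primary brown adipocytes, which are fat cells grown from precursors of interscapular brown adipose tissue. The WT cultures (replicates 10, 11 and 12) came from wildtype 129SvEvS1 mice and the Ucp1-KO cultures (replicates 13, 14 and 15) from UCP1(-/-) mice of the same strain. Per the methods of the study, the donors were males aged 5 to 6 weeks, and the cells of both genotypes were induced for 2 days with isobutylmethylxanthine, indomethacin, dexamethasone, insulin, T3 and rosiglitazone and then kept for 7 days with insulin, T3 and rosiglitazone. Rosiglitazone, an agonist of the fatty acid-responsive receptor PPARγ, was thus present in all 6 cultures, so that no comparison with untreated cells could be made. The cultures are described as independent, but how many mice each one pooled is not given in the sources used here. Cells were lysed as whole cultures, so a lower share of a cell type and less RNA per cell cannot be told apart.

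Abundance is given in RPKM, a read number scaled to the length of the transcript and to the depth of the culture, so that levels of different genes can be set side by side. Between 14989604 and 17727653 reads stood behind the values of a culture. Ucp1 itself lay at 1775, 981 and 1157 RPKM in WT and at 307, 409 and 398 RPKM in Ucp1-KO cultures, with a log2 fold change of -1.78 (SE 0.24) and a limma adjusted p of 0.868. This row covers a whole transcript and cannot separate exons kept at the disrupted locus from those removed. The paper attributes the mRNA left in Ucp1-KO cells to a remnant transcript without some exons, and reports no detectable UCP1 protein in them. The targeted gene therefore differed in the labelled direction without passing the adjusted threshold of 0.05, which 0 of the 16865 transcripts tested passed. Adipocyte markers were abundant in both genotypes, with summed levels of 28525 to 30265 RPKM in WT against 29242 to 31741 RPKM in Ucp1-KO cultures, nearly all of it Fabp4 with 26399 to 29312 RPKM. All 8 brown adipocyte markers were detected in every culture. Summed stromal markers ranged from 725 to 1690 RPKM in WT and from 623 to 985 RPKM in Ucp1-KO cultures, and summed macrophage markers from 56.3 to 167 and from 41.4 to 772 RPKM, highest in replicate 14. Endothelial markers summed to at most 33.2 RPKM and skeletal muscle markers to at most 11.8 RPKM, and 0 of all markers passed the adjusted threshold. The mean level was higher in Ucp1-KO for 5 of 5 adipocyte, 7 of 8 brown adipocyte, 4 of 4 macrophage and 5 of 6 skeletal muscle markers and lower for 8 of 9 stromal and 5 of 5 endothelial markers. Without WT replicate 11 only 5 of 9 stromal and 1 of 5 endothelial markers were lower, and without Ucp1-KO replicate 14 0 of 4 macrophage markers were higher. By limma, 2 of 9 tested stromal and 1 of 3 tested skeletal muscle markers had an unadjusted p under 0.05, and 0 in the other lists. Among all transcripts tested the share was 5.54%.

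Acsl1 and Acot13 dominated their families at the transcript level. The order of the mean levels was the same in both genotypes and ran from Acsl1 over Acot13, Acot2, Acsl3, Acsl4, Acot9, Acsl5, Acot11 and Acot1 to Acsl6. In WT cultures the ranges of Acsl3 and Acsl4 and those of Acsl4 and Acot9 overlapped, but Acsl3 exceeded Acsl4 in each of the 3 cultures, by 1.25, 1.32 and 1.31 times, whereas Acsl4 lay below Acot9 in replicate 10 and above it in replicates 11 and 12. In Ucp1-KO cultures the ranges of these pairs and also those of Acot2 with Acsl3 and of Acsl5 with Acot11 overlapped. Within the single Ucp1-KO cultures, Acot2 exceeded Acsl3, Acsl4 exceeded Acot9 by little and Acsl5 exceeded Acot11 in 3 of 3, and Acsl3 lay below Acsl4 in replicate 13 only. All other neighbours had separate ranges.

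**Figure D1:**
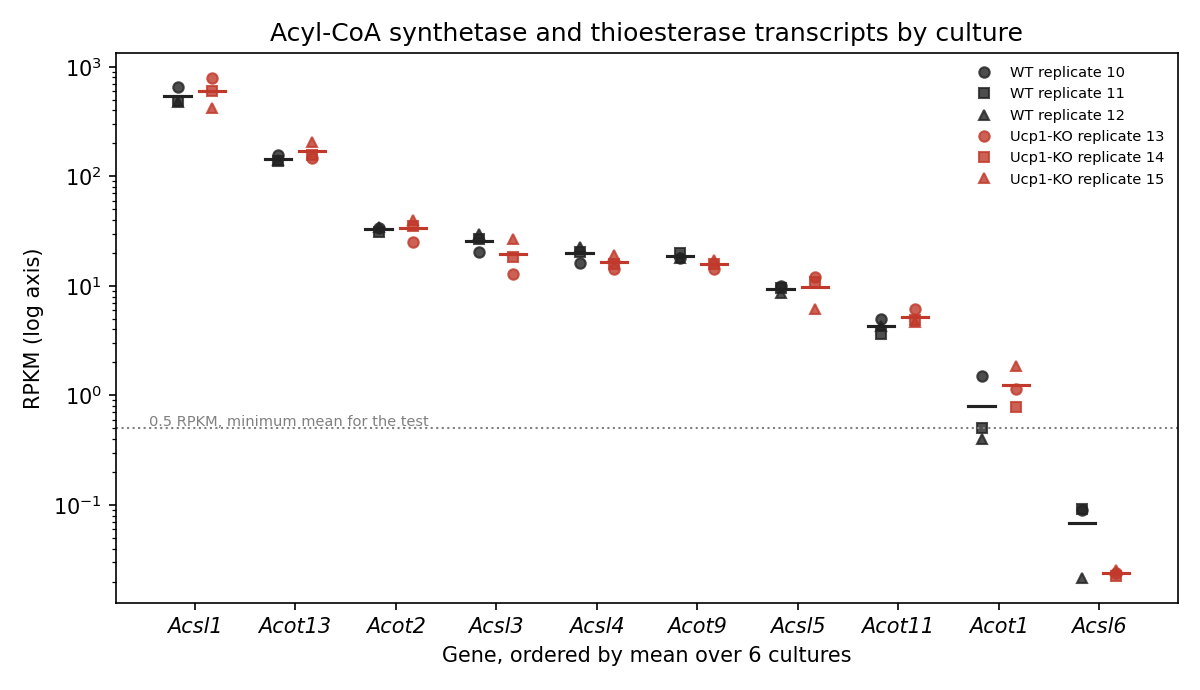
Transcript abundance of the 10 genes in RPKM on a log axis, with each symbol 1 culture (black, WT; red, Ucp1-KO) and each horizontal line the mean of 3 cultures. Acsl1 lies between 421 and 790 RPKM and Acot13 between 137 and 207 RPKM, whereas Acsl6 stays below 0.1 RPKM.

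The abundance of closely related thioesterase genes depends on where reads can be placed, so their sequences are shown first. Acot1 lies on the forward strand of chromosome 12 (GRCm38, chr12:84009502-84017670) and Acot2 next to it on the same strand (chr12:83987861-83993877), with their starts 21641 bases apart. In the GENCODE M21 transcripts each has 3 exons, and the coding sequences are 1257 and 1359 bases long. Aligned over 1236 coding bases they were 95.6% identical and differed at 55 positions. The stretch of 50 bases, the read length, in which they differed most is given below with the 10 differing bases in capitals, at coding positions 820 to 869 of Acot1 and 943 to 992 of Acot2:
Acot1: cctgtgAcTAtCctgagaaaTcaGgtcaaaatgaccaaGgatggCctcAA
Acot2: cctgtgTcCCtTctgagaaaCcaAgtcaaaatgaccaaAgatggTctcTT

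Other stretches do not differ at all. The following 50 bases, shown because a read from them fits both genes, begin at coding position 194 of Acot1 and 317 of Acot2 and hold no capital:
Acot1: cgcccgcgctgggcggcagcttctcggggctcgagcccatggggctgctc
Acot2: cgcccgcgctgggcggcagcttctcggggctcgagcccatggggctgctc

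Of the 50-base windows of the coding sequence, 43.6% of those of Acot1 (527 of 1208) and 40.2% of those of Acot2 (527 of 1310) occur in the other gene. Over the whole GENCODE transcripts, 33.6% of the windows of Acot1 and 27.7% of those of Acot2 are found in some other gene, neighbouring Acot genes of the cluster included. The Acot1 row behind the RPKM values is shorter than its GENCODE transcript, 1559 against 2272 bases, so that its own share may differ. Only uniquely identified reads entered the RPKM values, and reads from shared windows cannot be placed on 1 gene. The levels of both genes are therefore uncertain.

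**Figure D2:**
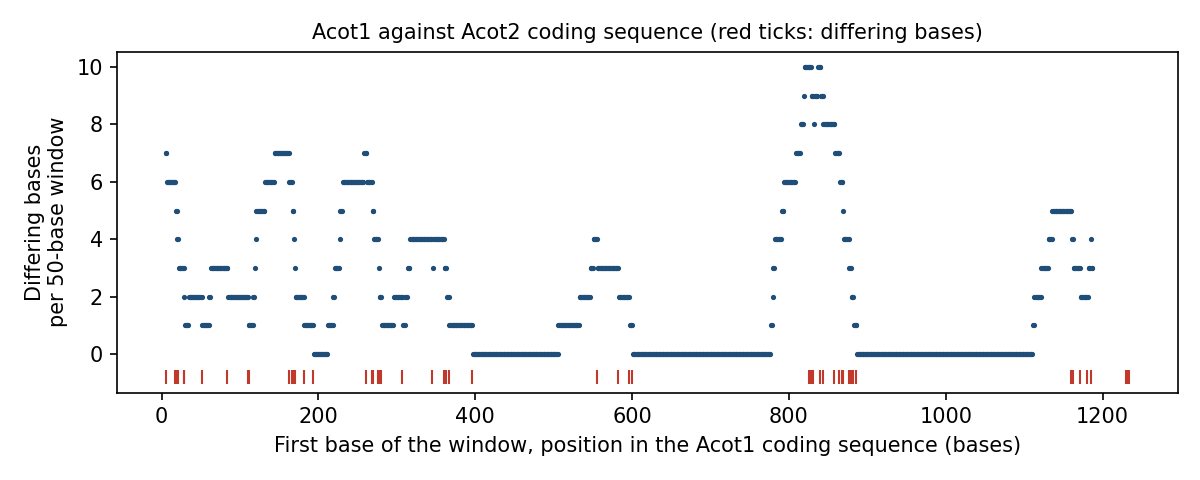
Number of bases that differ between Acot1 and Acot2 in each 50-base window without a gap, against the position of its first base in the Acot1 coding sequence, with red ticks at single differing bases. The windows reach 10 differing bases, and 527 of 1183 hold none.

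Ahead of their starts the neighbours had little in common. The 250 bases upstream of each RefSeq start (GRCm38.p6, forward strand) are given because the transcript levels of the pair lie far apart. They span chr12:84009252-84009501 for Acot1 and chr12:83987611-83987860 for Acot2:
Acot1: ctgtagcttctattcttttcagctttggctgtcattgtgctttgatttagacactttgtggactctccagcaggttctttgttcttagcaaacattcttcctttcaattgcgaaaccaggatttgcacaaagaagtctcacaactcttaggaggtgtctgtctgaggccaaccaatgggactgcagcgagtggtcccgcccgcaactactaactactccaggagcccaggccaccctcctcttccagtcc
Acot2: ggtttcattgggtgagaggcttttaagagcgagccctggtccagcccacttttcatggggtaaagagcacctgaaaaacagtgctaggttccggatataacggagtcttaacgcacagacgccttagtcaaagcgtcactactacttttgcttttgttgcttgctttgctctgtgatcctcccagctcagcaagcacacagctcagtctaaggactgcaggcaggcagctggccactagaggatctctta

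Identity over the 227 aligned bases was 48.0%, within the range of 41.3% to 59.1% (median 50.7%) of the 72 other pairs of upstream sequences of the 10 genes, 9 of which have an entry in the RefSeq promoter table. No factor binding was measured in these cultures, and the part of these sequences in the levels of the pair was not tested.

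Acsl1, the main long-chain synthetase of adipocytes, is needed for fatty acid oxidation in brown fat. It lies on the forward strand at chr8:46471037-46536051 and was listed as NM_007981. Its level was 660, 485 and 478 RPKM in WT replicates 10, 11 and 12 and 790, 598 and 421 RPKM in Ucp1-KO replicates 13, 14 and 15. The highest and the lowest value both belonged to Ucp1-KO cultures, whose range enclosed all WT values. The mean was 541 ± 103 RPKM in WT against 603 ± 184 RPKM in Ucp1-KO (SD, n = 3 each). The log2 fold change on the log2(RPKM + 1) scale, Ucp1-KO minus WT, was 0.13 (SE 0.25, 95% interval -0.46 to 0.72, limma adjusted p = 0.950). Without replicate 13 it was -0.091 and without replicate 15 it was 0.36. Acsl1 held place 62 in WT and place 50 in Ucp1-KO among 22466 genes ranked by mean RPKM, with 24553 to 49634 reads per culture.

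Acsl3 and Acsl4 were lower on average in Ucp1-KO cultures, within the spread. Acsl3 (chr1:78657825-78707743, forward strand) encodes a synthetase of the endoplasmic reticulum and of growing lipid droplets. It lay at 20.4, 26.9 and 29.8 RPKM in WT and at 12.9, 18.4 and 26.9 RPKM in Ucp1-KO. Replicate 13 was the lowest culture and replicate 15 overlapped with WT. The mean levels were 25.7 ± 4.84 and 19.4 ± 7.09 RPKM (SD, n = 3 each), and the log2 fold change was -0.43 (SE 0.26, 95% interval -1.06 to 0.20, limma adjusted p = 0.876). Without replicate 13 it was -0.18 and without replicate 15 it was -0.69. Its 3 RefSeq rows (NM_001033606, NM_028817 and NM_001136222) gave log2 fold changes between -0.44 and -0.43. A 66-base exon overlap with Utp14b on the same strand covers 2.22% of the GENCODE transcript, which has 2976 bases against 3810 of the row used.

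Acsl4 (chrX:142317993-142390802, reverse strand), whose product prefers arachidonic acid, lay at 16.3, 20.4 and 22.7 RPKM in WT and at 14.3, 15.9 and 19.0 RPKM in Ucp1-KO. The groups overlapped, since WT replicate 10 was below Ucp1-KO replicate 15. The mean levels were 19.8 ± 3.25 and 16.4 ± 2.41 RPKM (SD, n = 3 each), with a log2 fold change of -0.26 (SE 0.15, 95% interval -0.62 to 0.11, limma adjusted p = 0.876). It was -0.16 without replicate 12, -0.17 without replicate 13 and -0.38 without replicate 10. Its 3 rows (NM_001033600, NM_019477 and NM_207625) had log2 fold changes of -0.26, -0.26 and -0.25.

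Acsl5 (chr19:55251861-55296628, forward strand) encodes a synthetase found at mitochondria and the endoplasmic reticulum. Its level was 9.96, 9.53 and 8.58 RPKM in WT against 12.1, 10.8 and 6.16 RPKM in Ucp1-KO cultures. As with Acsl1, the Ucp1-KO values lay on both sides of all WT values. The mean was 9.36 ± 0.710 RPKM in WT against 9.70 ± 3.12 RPKM in Ucp1-KO (SD, n = 3 each), and the log2 fold change was 0.00 (SE 0.23, 95% interval -0.53 to 0.54, limma adjusted p = 0.999). Its GENCODE transcript of 4243 bases overlaps Zdhhc6 on the opposite strand over 404 exonic bases, 9.52% of that length, while the row behind the RPKM values is 3151 bases long, so that its own overlap may differ. The library kit did not mark strand, so reads there cannot be assigned. Zdhhc6 lay at 16.9, 18.1 and 17.9 RPKM in WT and at 15.9, 18.0 and 18.8 RPKM in Ucp1-KO cultures, and its part in the Acsl5 values was not tested.

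Acsl6 (chr11:54303805-54364756, forward strand), a synthetase best known from brain, was close to undetected. It was listed at 0.0904, 0.0925 and 0.0218 RPKM in WT and at 0.0239, 0.0224 and 0.0257 RPKM in Ucp1-KO cultures. These values rest on 4, 4 and 1 reads in WT and on 1 read in each Ucp1-KO culture. The floor of 3 reads corresponds to 0.0653 to 0.0772 RPKM for this transcript, so 4 of the 6 values are below it. Per read total, the 9 WT reads were 2.82 times the 3 Ucp1-KO reads, with an exact 95% interval of 0.703 to 16.2 that covers counting error only, and no difference was detectable at this depth. Acsl6 did not reach the minimum mean of 0.5 RPKM and was not tested.

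The coding sequences of the 5 synthetases are far less alike than the Acot pair, with 51.9% to 66.7% identity between them and 0 shared 50-base windows. A read of that length from the coding sequence thus fits only 1 of the 5.

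Among the thioesterases, Acot13 (THEM2), a small enzyme found at mitochondria and in the cytosol, was by far the most abundant. It lies on the reverse strand at chr13:24817955-24831489, and its levels were 158, 137 and 140 RPKM in WT against 146, 155 and 207 RPKM in Ucp1-KO cultures. Replicate 15 stood above all others, and the remaining Ucp1-KO values lay within the WT range. The mean was 145 ± 11.4 RPKM in WT against 169 ± 32.5 RPKM in Ucp1-KO (SD, n = 3 each), with a log2 fold change of 0.21 (SE 0.15, 95% interval -0.14 to 0.56, limma adjusted p = 0.876). Without replicate 15 the log2 fold change was 0.06.

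Acot2, the thioesterase of the mitochondrial matrix, lay at 33.7, 30.7 and 34.6 RPKM in WT and at 25.1, 35.4 and 39.8 RPKM in Ucp1-KO cultures. The Ucp1-KO values again enclosed those of WT. With means of 33.0 ± 2.023 and 33.5 ± 7.57 RPKM (SD, n = 3 each), the log2 fold change was -0.00 (SE 0.17, 95% interval -0.41 to 0.40, limma adjusted p = 0.998).

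Acot1, its cytosolic counterpart and a known target of the fatty acid receptor PPARα, was rare and the most variable of the genes tested. It lay at 1.503, 0.4996 and 0.398 RPKM in WT and at 1.15, 0.781 and 1.84 RPKM in Ucp1-KO cultures. These levels rest on 40, 13 and 11 reads in WT and 29, 21 and 43 reads in Ucp1-KO. WT replicate 10 reached the Ucp1-KO range, whereas the other WT cultures lay below it. The log2 fold change was 0.35 (SE 0.27, 95% interval -0.30 to 0.997, limma adjusted p = 0.878). Adding 0.1 RPKM gave 0.72 and limma-voom on whole reads gave 0.79, with adjusted p-values of 0.883 and 0.880. Without replicate 10 it was 0.61 (limma adjusted p = 0.454), and it was 0.24 without replicate 11, 0.19 without replicate 12 and 0.17 without replicate 15. The level of Acot2 was 22.4, 61.5 and 86.8 times that of Acot1 in WT and 21.8, 45.4 and 21.7 times in Ucp1-KO cultures.

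Acot9, another mitochondrial thioesterase (chrX:155262443-155297654, forward strand), was the only tested gene of the 10 whose groups did not overlap. Its level was 17.9, 20.1 and 17.8 RPKM in WT against 14.2, 15.7 and 17.3 RPKM in Ucp1-KO cultures. Each WT value exceeded each Ucp1-KO value, with a gap between WT replicate 12 and Ucp1-KO replicate 15 that was small against the spread. The mean was 18.6 ± 1.31 RPKM in WT against 15.8 ± 1.54 RPKM in Ucp1-KO (SD, n = 3 each), with a log2 fold change of -0.23 (SE 0.10, 95% interval -0.48 to 0.02, limma adjusted p = 0.868). An exact two-sided permutation test gave p = 0.10, the smallest value possible with 3 cultures against 3. Ranges without overlap were found for 11.2% of the 16865 transcripts tested and, with the lower values in Ucp1-KO, for 5.15% (6.04% with the higher values there), so that 1 of 9 genes is near the background.

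Acot9 also has a near copy. Acot10 on chromosome 15, a gene with 1 exon, is 97.2% identical to it over 1317 coding bases, and 24.9% of the coding 50-base windows of either gene occur in the other. Acot10 lay at 19.4, 23.9 and 24.3 RPKM in WT and at 17.2, 20.3 and 18.8 RPKM in Ucp1-KO cultures, with a log2 fold change of -0.25 (SE 0.12, limma adjusted p = 0.871). Reads from the shared windows cannot be placed on 1 gene, so the levels of both are uncertain. A further gene on the opposite strand overlaps 423 exonic bases of Acot10, 27.5% of its transcript, and reads there cannot be assigned to a strand.

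Acot11 (THEM1, also called BFIT), a brown fat thioesterase known to be induced by cold and to restrain fatty acid oxidation, lies on the reverse strand at chr4:106744555-106805007. Its level was 4.97, 3.67 and 4.31 RPKM in WT against 6.18, 4.91 and 4.66 RPKM in Ucp1-KO cultures. WT replicate 10 lay above Ucp1-KO replicates 14 and 15, and the groups overlapped. The mean was 4.32 ± 0.652 RPKM in WT against 5.25 ± 0.816 RPKM in Ucp1-KO (SD, n = 3 each), and the log2 fold change was 0.23 (SE 0.14, 95% interval -0.10 to 0.57, limma adjusted p = 0.876). It was 0.13 without replicate 13 and 0.14 without replicate 11. Exons of Fam151a on the opposite strand overlap 1263 bases, 22.2% of the transcript, and reads there cannot be assigned to a strand. Fam151a lay at 3.67, 3.47 and 3.66 RPKM in WT and at 4.37, 3.30 and 3.94 RPKM in Ucp1-KO cultures.

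None of the 9 tested genes passed the adjusted threshold, and 0 of 9 had an unadjusted p under 0.05 (limma, over all 16865 transcripts). Of all tested transcripts, 0% passed the adjusted threshold and 5.54% had an unadjusted p under 0.05. By limma-voom on whole reads, 0 transcripts passed and 894 had an unadjusted p under 0.05, again with 0 of the 9 genes in either count. The log2 fold change was above 0 for 5 genes and below 0 for 4, with a median of 0.00, and the median over all transcripts was -0.00. The intervals leave room for differences in either direction, and the absence of a call does not show that the genotypes were alike. The widest interval was that of Acot1 and the narrowest that of Acot9.

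**Figure D3:**
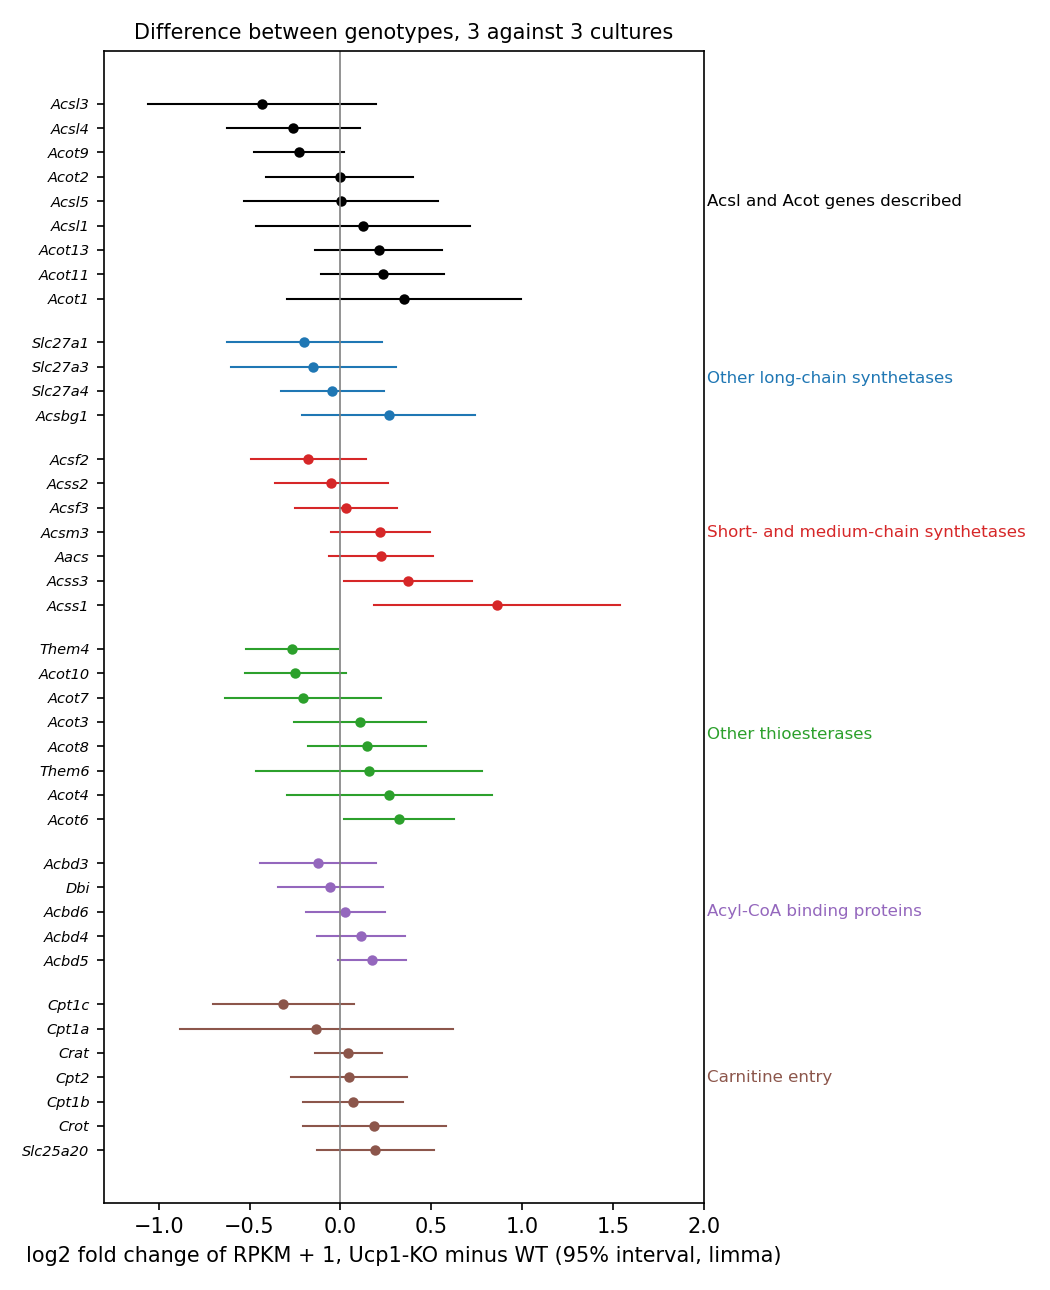
Log2 fold change of RPKM + 1, Ucp1-KO minus WT, with the 95% interval from limma, for the 9 tested genes and 31 further genes of acyl-CoA metabolism. Points lie between -0.43 (Acsl3) and 0.86 (Acss1), and the intervals of Acss1, Acss3, Acot6 and Them4 leave out 0 before adjustment.

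The Ucp1-KO values of Acsl1, Acsl5 and Acot2 enclosed all WT values, and the extremes fell on a few cultures. Among the tested genes, Ucp1-KO replicate 13 had the highest level of 3 and the lowest of 4, and replicate 15 the highest of 3 and the lowest of 2. WT replicate 10 and Ucp1-KO replicate 14 held neither place for any gene. Acsl1 and Acsl5 were highest in replicate 13 and lowest in replicate 15, whereas Acsl3 and Acsl4 were lowest in replicate 13 and highest in WT replicate 12.

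The ratio of Acsl1 to Acsl3 was accordingly 32.3, 18.0 and 16.0 in WT and 61.4, 32.5 and 15.6 in Ucp1-KO cultures. Both the highest and the lowest ratio were found among the Ucp1-KO cultures. The highest level of Acsl3 was 2.32 times its lowest, a spread reached by 6.004% of the 6895 transcripts of 10 RPKM or more on average, whose median was 1.35. For Acsl1 the spread was 1.88-fold, reached by 12.1%, and for Acot9 it was 1.41-fold, reached by 40.0%.

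The sum of the 8 brown adipocyte markers, most of which is Cidea and Cox7a1, stood at 1814, 1839 and 2031 RPKM in WT and at 1680, 2212 and 2700 RPKM in Ucp1-KO cultures. It was lowest in replicate 13 and highest in replicate 15, but only 1 of the 8 genes was lowest in the former and 3 of 8 were highest in the latter. WT replicate 11 was the lowest culture for 6 of the 8, and the highest for 8 of 9 stromal and 5 of 5 endothelial markers. Stromal markers, 9 genes of the preadipocyte and fibroblast fraction, stood at 725, 1690 and 1017 RPKM in WT and at 985, 914 and 623 RPKM in Ucp1-KO. Their lowest sum was in replicate 15 and their highest in replicate 11. The part of these markers in the levels of the 10 genes was not tested.

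**Figure D4:**
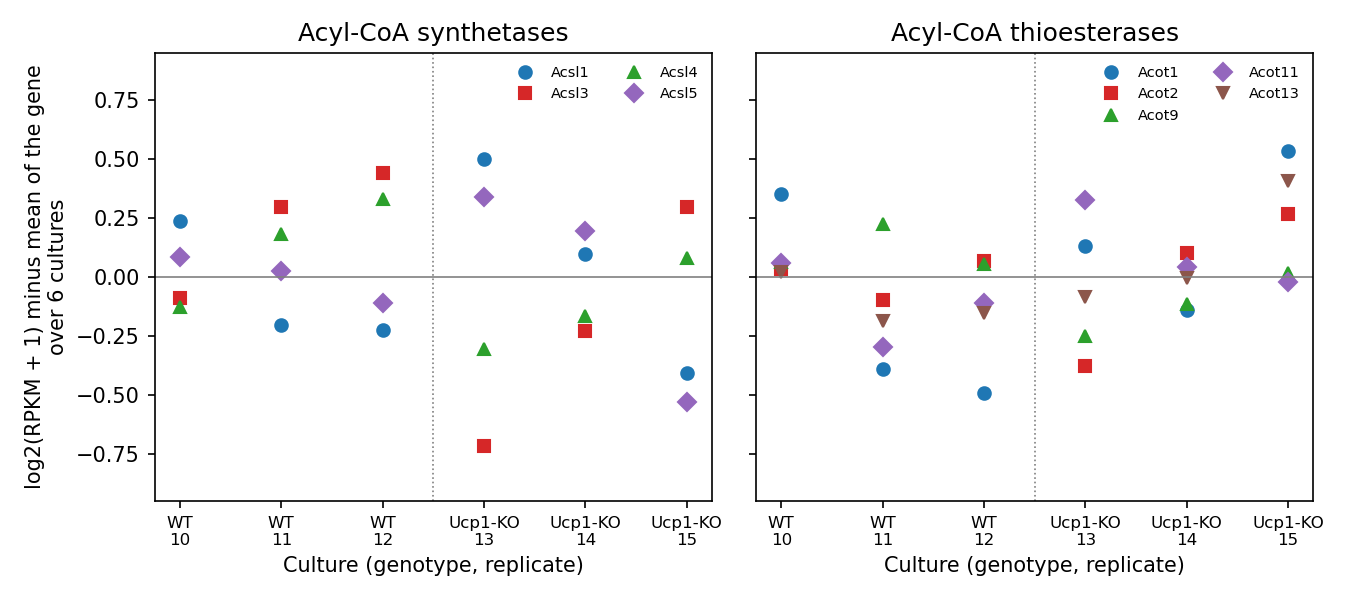
Deviation of each culture from the mean of the gene on the log2(RPKM + 1) scale for the 4 tested Acsl and the 5 Acot genes, with 1 symbol per gene and WT on the left of the dotted line. In replicate 13 Acsl1 lies 0.50 above and Acsl3 0.72 below the mean (deviation -0.72), and in replicate 15 Acsl1 lies at -0.41 and Acot13 at 0.41.

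The summed level of the 5 Acsl genes was 707, 542 and 539 RPKM in WT against 829, 643 and 473 RPKM in Ucp1-KO cultures. Acsl1 made up between 88.6% and 95.3% of it. The 5 Acot genes together stood at 216, 192 and 197 RPKM in WT and at 193, 212 and 270 RPKM in Ucp1-KO, with Acot13 contributing between 71.0% and 76.4%. The ratio of both sums was 3.27, 2.83 and 2.73 in WT and 4.29, 3.04 and 1.75 in Ucp1-KO cultures. Its mean was 2.94 ± 0.288 in WT and 3.03 ± 1.27 in Ucp1-KO (SD, n = 3 each), with the WT values inside the Ucp1-KO range.

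The transcripts whose profile over the 6 cultures came closest to that of Acsl1 were Msrb2, a methionine sulfoxide reductase, Septin9, a cytoskeletal GTPase whose symbol is date-like in the table and was looked up by gene ID, and Me1, the cytosolic malic enzyme that supplies NADPH. Their root-mean-square differences from the centred Acsl1 profile were 0.0557, 0.0620 and 0.0627 on the log2 scale. For Acot13 the closest were Cisd3, an iron-sulfur protein of mitochondria, Sh2b1, a signalling adaptor, and Cox7b, a cytochrome c oxidase subunit, with 0.0435, 0.0532 and 0.0561. They were taken, as the smallest differences, from 5038 genes with a mean of at least 10 RPKM. The median difference of these genes was 0.352 for Acsl1 and 0.252 for Acot13. A shared regulation was not tested.

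The neighbouring steps of acyl-CoA metabolism were read from 5 lists of 44 genes in all. Of these, 31 were abundant enough to be tested, 4 were at 0 in every culture, and 0 passed the adjusted threshold. An unadjusted p under 0.05 was reached by 3 genes with higher and 1 gene with lower levels in Ucp1-KO, against 2.3% and 3.24% of all transcripts tested. By limma-voom 3 of the 31 reached it. Without replicate 11, and likewise without replicate 14, 0 did by limma. Groups did not overlap for 6 of the 31, against 11.2% of all transcripts.

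The other long-chain synthetases, of the fatty acid transport protein and bubblegum types, were led by Slc27a1 with 49.3 ± 6.36 RPKM in WT against 43.4 ± 9.95 RPKM in Ucp1-KO (SD, n = 3 each), followed by Slc27a4 and Slc27a3. Of 8 genes 4 were tested, with a median log2 fold change of -0.10. All of them lay far below Acsl1 in every culture.

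Short- and medium-chain synthetases were led by Acss2, the cytosolic acetyl-CoA synthetase, with 200 ± 30.8 RPKM in WT against 192 ± 14.2 RPKM in Ucp1-KO (SD, n = 3 each), followed by Aacs and Acsf2. Acss1, the mitochondrial acetyl-CoA synthetase, lay at 2.43, 2.57 and 3.14 RPKM in WT and at 3.24, 6.57 and 8.45 RPKM in Ucp1-KO cultures. All Ucp1-KO values were above WT, with a log2 fold change of 0.86 (SE 0.29, limma adjusted p = 0.868). Acss3, a mitochondrial synthetase for propionate, lay at 10.2, 9.65 and 9.90 RPKM in WT and at 10.4, 13.9 and 15.7 RPKM in Ucp1-KO, with a log2 fold change of 0.37 (SE 0.15, limma adjusted p = 0.868). For both genes replicate 13 was next to the WT values and replicate 15 the highest. The median over the 7 tested of 11 genes was 0.22.

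Of the 12 other thioesterases 8 were tested, with a median log2 fold change of 0.13. The most abundant were Acot10, Acot7 and Acot8. Acot6, a gene of the chromosome 12 cluster, lay at 1.70, 1.78 and 2.20 RPKM in WT and at 2.31, 2.55 and 3.002 RPKM in Ucp1-KO cultures (log2 fold change 0.32, SE 0.13, limma adjusted p = 0.868). Them4, a mitochondrial thioesterase, lay at 12.3, 13.4 and 14.6 RPKM in WT and at 11.2, 9.93 and 11.8 RPKM in Ucp1-KO (log2 fold change -0.27, SE 0.11, limma adjusted p = 0.868). The groups of both genes did not overlap.

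Acyl-CoA binding proteins, which carry the product of the synthetases through the cytosol, were led by Dbi with 1986 ± 142 RPKM in WT against 1908 ± 61.1 RPKM in Ucp1-KO (SD, n = 3 each), above Acsl1 in every culture, followed by Acbd4 and Acbd5. Entry into mitochondria by way of carnitine was represented by Cpt1b, the muscle-type carnitine palmitoyltransferase of brown fat, with 226 ± 29.1 and 236 ± 11.01 RPKM, by Cpt2, the inner membrane enzyme, with 214 ± 27.9 and 221 ± 24.4 RPKM, and by Slc25a20, the carnitine carrier, with 201.4 ± 34.0 and 228 ± 11.3 RPKM in WT and Ucp1-KO (SD, n = 3 each). All 7 genes of that list were tested and their log2 fold changes lay between -0.31 and 0.19.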

How the data were processed

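The authors sequenced single reads of 50 bases from TruSeq v2 libraries of 3 WT and 3 Ucp1-KO cultures, mapped them to NCBI build 38 of the mouse genome, counted reads with a unique position per known transcript in Genomatix software and deposited RPKM values per transcript and culture. Of 168326 rows, the 28890 RefSeq rows (NM and NR) were used. All 6 value columns were matched to cultures by name.

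Rows with a mean of at least 0.5 RPKM (16865) entered a limma fit (version 3.58.1, R 4.3.3) of log2(RPKM + 1) on genotype, with moderated variances that follow abundance. P-values were adjusted over all rows (Benjamini-Hochberg, threshold 0.05). The added 1 RPKM understates changes of rare transcripts. The planned design held a count test and limma for RPKM, and the latter applied. For single genes, RPKM values were permuted exactly (two-sided). Nothing in the labels pairs cultures across genotypes, and p-values measure the spread between these cultures.

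RPKM were converted to whole reads (within 0.05 read) for 16865 of 16865 tested rows, with totals derived from Ensembl transcripts, of whose values about 93.4% came out whole. Counting intervals and floors cover counting error only, since reads carried no molecular identifiers. No culture pair agreed within sampling noise. The comparison was tested on simulated data.

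Genes named were the 10 genes and Ucp1, the 3 most abundant genes and those with an unadjusted p under 0.05 of each pathway list, the 3 closest profiles to Acsl1 and to Acot13, and the rows of genes with several. Acot10, Fam151a, Zdhhc6 and Utp14b were named for shared sequence, and Acsm3, Cidea, Cox7a1 and Fabp4 after their values were seen. The genes and lists were chosen with earlier results of these data known. Alternatives were 0.1 RPKM added, no minimum, 1 row per gene, the mean of all RefSeq rows, all annotations, median-of-ratios scaling, limma-voom on recovered reads and leaving out each culture. The marker counts without single cultures were added after the data were seen. Coordinates and sequences are from RefSeq (GRCm38.p6, all 10 genes matched) and GENCODE M21, and were aligned with Biopython 1.88. Python 3.11.15 with pandas 2.3.3, numpy 2.4.6, scipy 1.17.1 and matplotlib 3.10.9 was used otherwise.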

Additional observations from a re-analysis of the deposited data

How the results depend on the processing

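No tested gene of the 10 passed the adjusted threshold under any alternative, and the smallest limma adjusted p was 0.454 (Acot1 without replicate 10). Of 100 combinations of a count or sum with a setting, 86 stayed within 1.5 times or 1 SD of the reported value. Many of these were counts at 0 in both, which says little about how stable the results are. The Acot sums could not change with the mean of all RefSeq rows, since each Acot gene has 1 row. Without a minimum abundance, 22 transcripts passed the adjusted threshold and 1456 had an unadjusted p under 0.05, and with rows of all annotations 5193 had one. The 22 held 0 of the 10 genes, 0 of the pathway genes and not Ucp1, whose limma adjusted p was 0.785 there. Leaving out each culture in turn, the transcripts with an unadjusted p under 0.05 numbered 317 (without replicate 11) to 1754 (without replicate 10), 0 to 2 of the tested genes reached it, and 0 to 4 of the pathway genes. The 2 genes were Acsl4 (-0.38) and Acot1 (0.61) without replicate 10, and Acsl3 (-0.69) and Acot9 (-0.29) without replicate 15.

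The sign changed for 3 genes with log2 fold changes near 0. Acsl5 was at -0.0032 with 0.1 RPKM added, and Acot2 at 0.0077 with median-of-ratios scaling. With 1 culture left out, Acsl1 ran from -0.091 to 0.36, Acsl5 from -0.17 to 0.27 and Acot2 from -0.14 to 0.18, with the negative value of Acsl1 without replicate 13. The causes were not tested. No paired analysis was run because the replicate numbers are not shared between genotypes. By the chi-square of the reads per transcript, the closest cultures were WT replicates 11 and 12 (11.002), followed by WT replicate 10 and Ucp1-KO replicate 13 (16.4), which nothing in the labels ties together. Replicate 10 was at 28.1 and 38.2 from the other WT cultures. Precision was limited by 3 cultures per genotype and, for Acot1 and Acsl6, by read numbers.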

Other observations

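Among the further genes of acyl-CoA metabolism, Acbd5, a peroxisomal acyl-CoA binding protein, lay at 25.0, 23.2 and 24.5 RPKM in WT and at 27.4, 28.2 and 26.8 RPKM in Ucp1-KO cultures, without overlap (log2 fold change 0.17, SE 0.08, limma adjusted p = 0.868). Acsm3, a medium-chain synthetase, lay at 0.687, 0.867 and 0.860 RPKM in WT and at 0.993, 1.11 and 1.20 RPKM in Ucp1-KO, also without overlap (log2 fold change 0.22, SE 0.11, limma adjusted p = 0.871). Acsm3 was chosen after its values were seen, and both were set out here for their separate ranges. Such ranges were found for 11.2% of all transcripts tested.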
